A study of Rattus norvegicus with 12 samples.

Results

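Immediate early genes are switched on within minutes of a stimulus, from transcription factors that the cell already holds, so that no new protein has to be made first. Their mRNAs are short-lived, and the genes are known to respond to growth factors, cytokines and tissue injury, and also to the handling and dissection of a sample. Activated MAP kinases act on ternary complex factors, which work with serum response factor at CArG boxes, and on CREB, which binds cAMP response elements (CREs). The products are largely transcription factors, among them the Fos and Jun proteins that pair to form AP-1, and feedback proteins that end the response.

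Of 10 immediate early genes looked up by symbol (Fos, Fosb, Jun, Junb, Egr1, Ier2, Atf3, Nr4a1, Dusp1 and Zfp36), 9 had a row in the deposited expression table, out of 21797 genes in all. Ier2 is not analysed here. All 9 passed the filter on low values, which asked for 3 or more libraries with 1 FPKM or more, and were among the 12270 genes tested. FPKM counts fragments per length of transcript, scaled for library size, so levels can be compared between genes.

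The samples were rat tissue that the labels call subcutaneous tissue and muscle, taken at 2 and 4 weeks (2W and 4W). Control animals carried an implant of GelMA, a light-cured gelatin hydrogel, and test animals carried MFN+GelMA. MFN is not spelled out in the labels, and the series' title names a microfiber. The control groups were GelMA at 2W and 4W and the test groups MFN+GelMA at 2W and 4W, with 3 libraries each. No strain, age or unimplanted tissue is given in the labels used here, and nothing says whether replicates came from separate animals, so each p-value reflects the spread between these samples alone, and that spread may be technical. The samples were bulk tissue, in which fewer cells of a type and less RNA per cell cannot be told apart.

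The libraries held about 11405126 to 14043165 fragments each, and 11323 to 11773 genes reached 1 FPKM. Tissue markers were checked against the tissue label. The skeletal muscle fibre list (7 of 10 markers in the table) summed to 886.8 FPKM in MFN+GelMA 2W replicate 2 and to between 10.94 and 36.45 FPKM in the other 11 libraries. The actin gene Acta1, which defines muscle fibres, stood there at 275.0 FPKM and below 1 FPKM everywhere else. The fat hormone gene Adipoq reached 2118 FPKM in GelMA 4W replicate 2, against 31.95 and 17.97 FPKM in the other GelMA 4W libraries. GelMA 2W replicate 3 had the lowest endothelial signal, with a mean log2(FPKM + 1) of 3.54 over 9 markers, against 5.05 and 5.17 in its group. Keratin Krt5 was listed at 0 in all 12 libraries. The 3 libraries named here stand apart, and calls of the immediate early genes that rest on them are given with and without them.

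Promoters are shown because immediate early genes are known to be induced through elements such as the CArG box and the CRE, which not every window searched here held. RefSeq promoter sequences (build GRCr8, 250 bases before to 50 bases after the start site) were matched for 7 of the 10 genes, all except Fos, Jun and Atf3. The promoters of Egr1 (chr18:26736828-26737127, plus strand), Zfp36 (chr1:92799059-92799358, minus strand) and Dusp1 (chr10:17184603-17184902, plus strand) are printed below, 5′ to 3′, with capitals marking a CArG box in Egr1 and Zfp36 and the CRE palindrome TGACGTCA in Dusp1.
Egr1: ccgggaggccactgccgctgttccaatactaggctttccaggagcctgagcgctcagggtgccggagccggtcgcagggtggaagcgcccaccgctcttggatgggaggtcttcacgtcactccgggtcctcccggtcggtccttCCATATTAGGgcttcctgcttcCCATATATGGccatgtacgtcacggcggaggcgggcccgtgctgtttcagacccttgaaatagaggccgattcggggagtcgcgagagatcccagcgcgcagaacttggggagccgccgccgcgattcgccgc
Zfp36: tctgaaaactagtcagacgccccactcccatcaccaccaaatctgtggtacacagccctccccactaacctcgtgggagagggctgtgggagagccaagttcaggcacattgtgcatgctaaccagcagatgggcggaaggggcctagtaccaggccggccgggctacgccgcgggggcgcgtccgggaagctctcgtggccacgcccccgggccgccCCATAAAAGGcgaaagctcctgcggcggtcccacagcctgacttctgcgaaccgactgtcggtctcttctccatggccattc
Dusp1: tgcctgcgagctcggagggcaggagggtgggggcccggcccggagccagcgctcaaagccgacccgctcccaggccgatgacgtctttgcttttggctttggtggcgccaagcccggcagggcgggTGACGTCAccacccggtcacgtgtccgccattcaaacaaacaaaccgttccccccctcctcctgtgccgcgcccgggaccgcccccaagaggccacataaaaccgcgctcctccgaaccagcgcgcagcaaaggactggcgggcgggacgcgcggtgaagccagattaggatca
Egr1 held 2 CArG boxes, whose first bases lie at -105 and -83 from the start site, and Zfp36 held 1 at -32. Dusp1 held the CRE at -124, and Ier2 held one at -66. CArG boxes were found in 2 of the 7 promoters and in 1.64% of the 33469 promoters of the same length, and the CRE in 2 of 7 and 1.83%. The shorter TGACG, which the CRE contains, was in 5 of 7 promoters and in 21.2% of all. The AP-1 site TGACTCA was in 0 of 7 and 4.63%. The EGR site GCGGGGGCG was in 2 of 7 (Nr4a1 and Zfp36) and 2.73%, and TATAAA in 2 of 7 (Fosb and Junb) and 14.2%. Both strands were searched. A match describes the letters of the window and does not show that a factor was bound.

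Levels differed widely within the gene set. In GelMA 2W the order of mean levels was Dusp1, Zfp36, Fos, Jun, Junb, Egr1, Atf3, Fosb and Nr4a1, from 167.3 ± 14.1 FPKM (SD, n = 3) for Dusp1 to 5.18 ± 3.29 FPKM (SD, n = 3) for Nr4a1. Neighbours in that order overlapped in their library values, except Fosb and Nr4a1. Nr4a1 had the lowest mean in all 4 groups. Zfp36 led in MFN+GelMA 2W (88.7 ± 32.2 FPKM, SD, n = 3) and in GelMA 4W (137.5 ± 69.5 FPKM, SD, n = 3), in each case overlapping with the next gene. In MFN+GelMA 4W Atf3 led at 198.6 ± 17.7 FPKM (SD, n = 3), with no overlap with Zfp36, the next in order at 76.2 ± 14.6 FPKM (SD, n = 3).

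**Figure D1:**
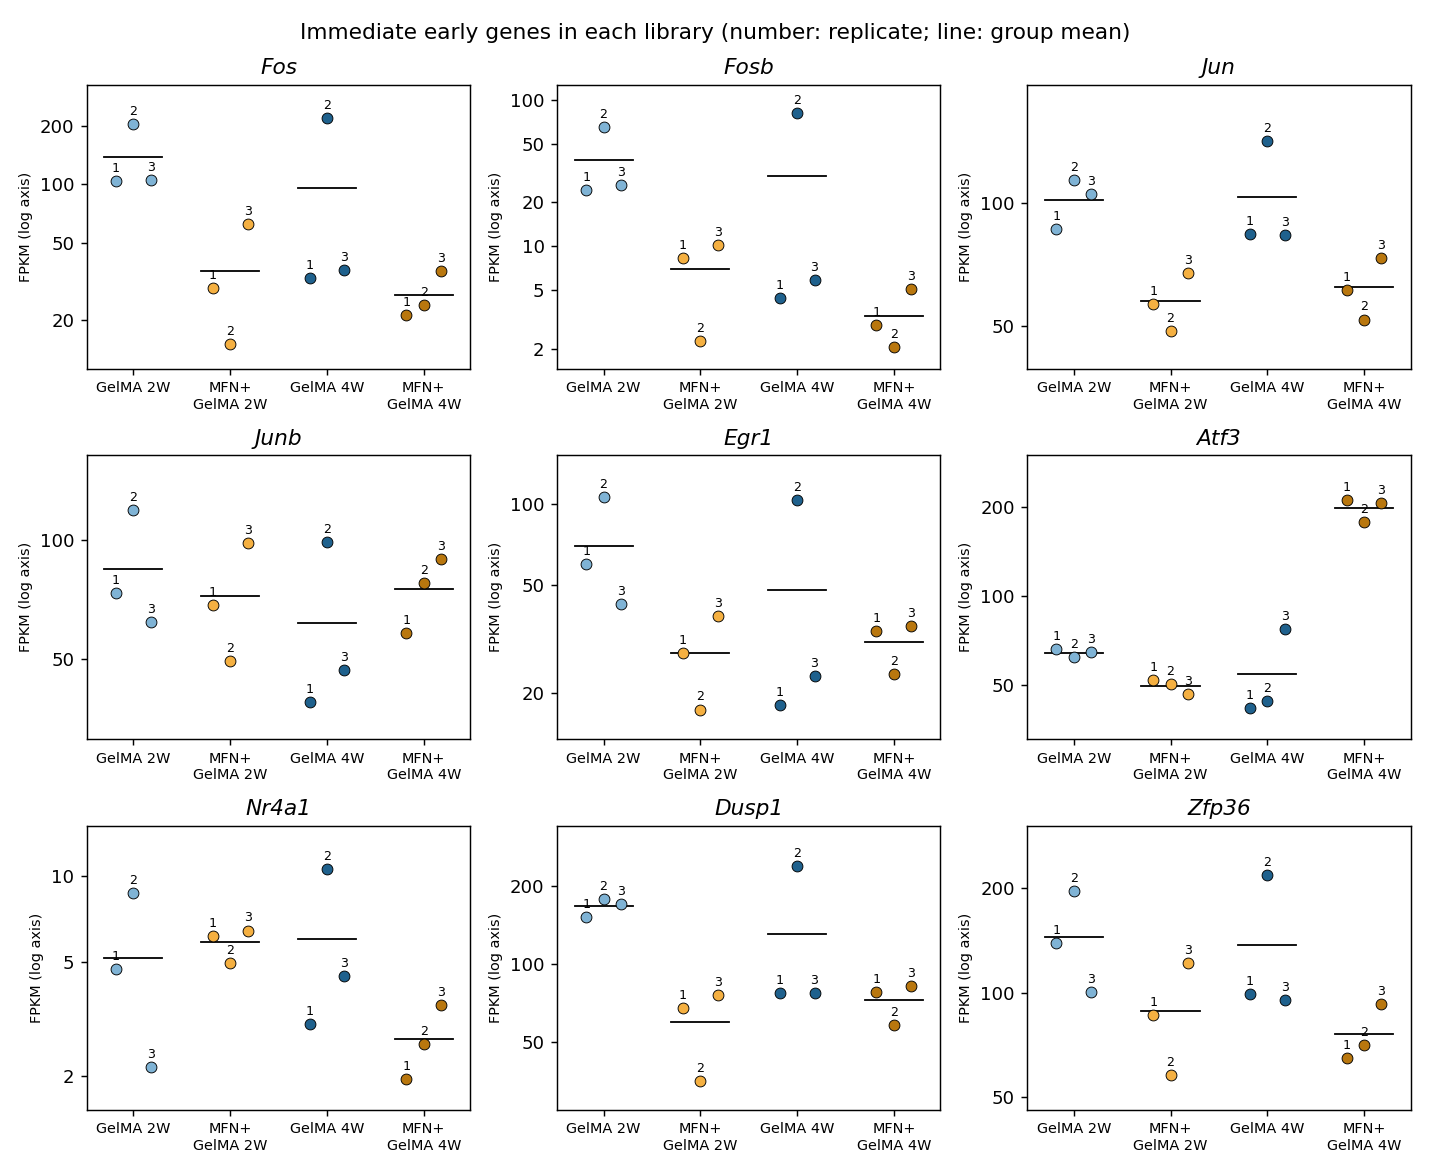
FPKM (log axis) of the 9 immediate early genes in each of the 12 libraries, by group, with the replicate number at each point and a line at the group mean. Replicate 2 of GelMA 4W lies far above its group for most genes, and Atf3 lies between 178.5 and 211.8 FPKM in the 3 MFN+GelMA 4W libraries and between 41.9 and 77.6 FPKM elsewhere.

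Fos and Fosb encode the Fos subunits of AP-1, which bind DNA only as partners of Jun proteins. Fos (ENSRNOG00000008015; rn6 chromosome 6, 109300432 to 109303299, plus strand) stood at 104.0, 205.8 and 105.7 FPKM in GelMA 2W replicates 1 to 3, at 29.3, 15.0 and 62.5 in MFN+GelMA 2W, at 32.8, 219.3 and 36.2 in GelMA 4W, and at 21.2, 23.8 and 35.7 in MFN+GelMA 4W. The 2-week groups did not overlap, whereas at 4 weeks GelMA replicate 3 lay close to the highest MFN+GelMA library and replicate 2 far above all of them. Fosb (ENSRNOG00000046667; rn6 chromosome 1, 80214493 to 80221710, minus strand) had values of 24.2, 65.0 and 26.1 FPKM in GelMA 2W, 8.35, 2.26 and 10.2 in MFN+GelMA 2W, 4.43, 80.6 and 5.86 in GelMA 4W, and 2.93, 2.07 and 5.11 in MFN+GelMA 4W. It showed the same layout, with the widest range of the set, 39.0-fold between its lowest and highest library. With all 12 libraries neither gene passed the test in any of the comparisons by limma. At 2 weeks the log2 fold change of MFN+GelMA over GelMA was -2.08 for Fos (SE 0.67, limma adjusted p = 0.19) and -2.35 for Fosb (SE 0.88, limma adjusted p = 0.258). At 4 weeks it was -1.26 for Fos (SE 0.67, limma adjusted p = 0.197) and -1.79 for Fosb (SE 0.88, limma adjusted p = 0.163). Without GelMA 4W replicate 2 these 4-week differences were -0.38 and -0.54. Without that library the 2-week adjusted p of both was 0.058 by limma. Without all 3 libraries that stand apart Fosb fell by 1.99 in MFN+GelMA at 2 weeks (limma adjusted p = 0.0436) and fell by 1.29 with time in MFN+GelMA (limma adjusted p = 0.0474), against a time difference of -0.74 (limma adjusted p = 0.614) with all libraries. Fos did not pass there at 2 weeks (-1.75, limma adjusted p = 0.0513).

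Jun and Junb encode the Jun subunits, with Junb a weaker activator than Jun at many AP-1 sites. Jun (ENSRNOG00000026293; rn6 chromosome 5, 114011188 to 114014277, minus strand) measured 86.3, 114.5 and 105.3 FPKM in GelMA 2W, 56.5, 48.7 and 67.6 in MFN+GelMA 2W, 83.9, 142.7 and 83.9 in GelMA 4W, and 61.2, 51.8 and 73.3 in MFN+GelMA 4W. Every GelMA library lay above every MFN+GelMA library of the same week. Jun fell in MFN+GelMA at 4 weeks, from 103.5 ± 34.0 to 62.1 ± 10.8 FPKM (SD, n = 3), with a log2 fold change of -0.69 (SE 0.21, limma adjusted p = 0.0354). The call rested on single libraries. The limma adjusted p was 0.106 without GelMA 4W replicate 2 (log2 fold change -0.44). It was 0.0858 when MFN+GelMA 4W replicate 1 was left out and 0.12 when replicate 2 of that group was. At 2 weeks Jun differed by a similar -0.82 (SE 0.21), which did not pass over all genes (limma adjusted p = 0.113), and it passed without GelMA 4W replicate 2 (limma adjusted p = 0.0453). Without all 3 libraries that stand apart Jun passed at neither week (limma adjusted p = 0.0902 and 0.0919). Junb (ENSRNOG00000042838; rn6 chromosome 19, 26092973 to 26094756, minus strand) had overlapping groups in all 4 pairs, with means from 61.8 ± 32.6 FPKM (GelMA 4W, SD, n = 3) up to 84.8 ± 30.2 FPKM (GelMA 2W, SD, n = 3). Its log2 fold changes for MFN+GelMA were -0.23 at 2 weeks (limma adjusted p = 0.806) and 0.38 at 4 weeks (limma adjusted p = 0.481). Without all 3 libraries that stand apart, the 4-week value of Junb was 0.78 and passed (limma adjusted p = 0.0489).

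Egr1 and Nr4a1 encode further transcription factors of the set, a zinc finger protein of GC-rich promoters and an orphan nuclear receptor. Egr1 (ENSRNOG00000019422; rn6 chromosome 18, 27657627 to 27661429, plus strand), whose promoter carries the CArG boxes printed above, stood at 59.95, 105.8 and 42.8 FPKM in GelMA 2W, at 28.1, 17.4 and 38.6 in MFN+GelMA 2W, at 18.03, 102.7 and 23.2 in GelMA 4W, and at 33.8, 23.5 and 35.3 in MFN+GelMA 4W. At 2 weeks all GelMA libraries were above the MFN+GelMA libraries, while at 4 weeks replicates 1 and 3 of GelMA were below all 3 MFN+GelMA libraries and replicate 2 above them. The log2 fold change was -1.25 at 2 weeks (SE 0.56, limma adjusted p = 0.34) and -0.21 at 4 weeks (SE 0.56, limma adjusted p = 0.822). Without GelMA 4W replicate 2 the 4-week value turned to 0.55 (limma adjusted p = 0.34), and the 4-week minus 2-week difference of the material effect became 1.8 (limma adjusted p = 0.0431; 0.024 without all 3 libraries that stand apart), against 1.04 (limma adjusted p = 0.413) with all libraries. Nr4a1 (ENSRNOG00000007607; rn6 chromosome 7, 142905757 to 142920216, plus strand) ranged from 1.95 FPKM in MFN+GelMA 4W replicate 1 to 10.6 FPKM in GelMA 4W replicate 2. Its 3 MFN+GelMA 4W libraries (at most 3.55 FPKM) lay below the 3 MFN+GelMA 2W libraries (at least 4.97 FPKM). That log2 difference of -0.91 (SE 0.42) did not pass (limma adjusted p = 0.157), and without all 3 libraries that stand apart it was -1.01 and passed (limma adjusted p = 0.0269).

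Dusp1 and Zfp36 encode the feedback arm. Dusp1 is a phosphatase that inactivates MAP kinases, and Zfp36 encodes tristetraprolin, which binds AU-rich mRNAs and speeds their decay. Dusp1 (ENSRNOG00000003977; rn6 chromosome 10, 16970625 to 16973418, plus strand) measured 151.9, 179.4 and 170.7 FPKM in GelMA 2W, 67.8, 35.6 and 76.0 in MFN+GelMA 2W, 77.3, 239.1 and 77.9 in GelMA 4W, and 78.0, 58.4 and 82.6 in MFN+GelMA 4W. The 3 GelMA 2W libraries were close together and all at least 151.9 FPKM, above every other library except GelMA 4W replicate 2. At 2 weeks its means were 167.3 ± 14.1 FPKM in GelMA and 59.8 ± 21.4 FPKM in MFN+GelMA (SD, n = 3), a log2 fold change of -1.54 (SE 0.40) that did not pass (limma adjusted p = 0.108). It passed without GelMA 4W replicate 2 (limma adjusted p = 0.0201), a library outside that comparison that enters the shared estimate of the spread. At 4 weeks the log2 fold change of Dusp1 was -0.64 (limma adjusted p = 0.268), and -0.10 without that library (limma adjusted p = 0.829). The difference of its material effect between weeks, 0.9 with all libraries (limma adjusted p = 0.314), was then 1.44 and passed (limma adjusted p = 0.0295). Without all 3 libraries that stand apart it was 1.09 (limma adjusted p = 0.0217), and the 2-week value was -1.19 (limma adjusted p = 0.00964). Zfp36 (ENSRNOG00000058388; rn6 chromosome 1, 85380094 to 85382607, plus strand) measured 139.4, 195.8 and 100.3 FPKM in GelMA 2W, 86.2, 57.9 and 122.1 in MFN+GelMA 2W, 99.3, 217.7 and 95.3 in GelMA 4W, and 65.1, 70.8 and 92.7 in MFN+GelMA 4W. Its groups overlapped at 2 weeks and were separate at 4 weeks by a narrow gap, between 92.7 and 95.3 FPKM. The log2 fold changes of -0.72 and -0.75 did not pass (limma adjusted p = 0.393 and 0.148).

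Atf3, a stress-induced factor of the ATF/CREB family that can pair with Jun proteins, had another pattern. Atf3 (ENSRNOG00000003745; rn6 chromosome 13, 109817727 to 109849632, minus strand) stood at 66.5, 62.5 and 64.6 FPKM in GelMA 2W, at 52.2, 50.7 and 46.8 in MFN+GelMA 2W, at 41.9, 44.3 and 77.6 in GelMA 4W, and at 211.8, 178.5 and 205.5 in MFN+GelMA 4W. The 3 MFN+GelMA 4W libraries were high and close together, and the other 9 libraries reached at most 77.6 FPKM. Atf3 rose in MFN+GelMA at 4 weeks, to 3.64 times the GelMA mean, from 54.6 ± 19.9 to 198.6 ± 17.7 FPKM (SD, n = 3), with a log2 fold change of 1.9 (SE 0.19, limma adjusted p = 8.3e-05). Between 2 and 4 weeks it rose in MFN+GelMA by 1.97 (SE 0.19, limma adjusted p = 0.000165), or 3.98-fold. In GelMA the same time difference was -0.29 (limma adjusted p = 0.442). At 2 weeks the material difference was -0.37 (limma adjusted p = 0.409), with the MFN+GelMA libraries all below the GelMA libraries. The material effect differed between the weeks, by 2.26 on the log2 scale (SE 0.27, limma adjusted p = 0.00243). Over 21 alternative settings the 4-week log2 fold change of Atf3 lay between 1.74 and 2.17 (limma adjusted p from 1.05e-05 to 0.00292). The tissue differed in other ways too. On the log2(FPKM + 1) scale the macrophage markers (9 of 10 in the table, none at 0) averaged 7.74 to 7.9 in MFN+GelMA 4W and 7.17 to 7.54 in GelMA 4W, and the 9 endothelial markers 3.76 to 4.23 against 4.78 to 5.29. The summed macrophage markers, 14710 to 15880 FPKM against 4210 to 8647, were mostly the lysozyme gene Lyz2 (12540 to 13840 FPKM in MFN+GelMA 4W, 3056 to 7057 in GelMA 4W). The list did not move as one: the scavenger receptor gene Cd163 was at 8.36 to 12.4 FPKM in MFN+GelMA 4W and 26.8 to 40.6 in GelMA 4W, and the libraries of Mrc1, Aif1 and Adgre1 overlapped. Their part in the Atf3 result was not tested.

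As a set, the members are read against all tested genes. At 2 weeks 0 of the 9 genes passed between materials, where 0.497% of all genes did. At an unadjusted p under 0.05 there were 5 of 9 (Fos, Fosb, Jun, Egr1 and Dusp1), all lower in MFN+GelMA, beside 6.53% of all genes lower at that level. The count in either direction was 3 of 9 without MFN+GelMA 2W replicate 2 and 3 of 9 without GelMA 2W replicate 2. Without all 3 libraries that stand apart it was 6 of 9. The share of all genes was not computed for these fits. The members other than Atf3 vary together from library to library, so they are not independent of each other. Those 5 genes and Atf3 made 6 of 9 whose MFN+GelMA libraries all lay below the GelMA libraries, beside 8.48% of all genes. The median log2 fold change of the 9 was -0.82, and that of all genes 0.0065. At 4 weeks 1 of 9 rose (Atf3), where 15.3% of all genes rose, and 1 fell (Jun), where 9.27% fell. Libraries did not overlap for Atf3, higher in MFN+GelMA beside 27.0% of all genes, and for Jun and Zfp36, lower beside 18.6%. These shares at 4 weeks are near the background. The median was -0.69, beside 0.049 for all genes.

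Across time, 0 of 9 passed in GelMA, where 2.23% of all genes passed. At an unadjusted p under 0.05 the count was also 0 of 9, beside 18.2% of all genes. Without GelMA 4W replicate 2 that count was 5 of 9. The 2W and 4W libraries of every member overlapped, while those of 24.4% of all genes did not. For Fos, Fosb, Jun, Junb, Egr1, Dusp1 and Zfp36 only GelMA 4W replicate 2 made the overlap. Their other GelMA 4W libraries lay below all GelMA 2W libraries, by narrow gaps for Jun and Zfp36. Neither share of all genes was computed without that library. In MFN+GelMA 1 of 9 rose, Atf3, beside 11.2% of all genes, and 0 fell, beside 8.11%. Libraries did not overlap for Atf3, higher at 4 weeks beside 20.1% of all genes, and for Nr4a1, lower beside 17.6%. For the difference of the material effect between weeks 1 of 9 passed, Atf3 again, beside 14.1% of all genes. The comparisons share samples, so they are not independent of each other.

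**Figure D2:**
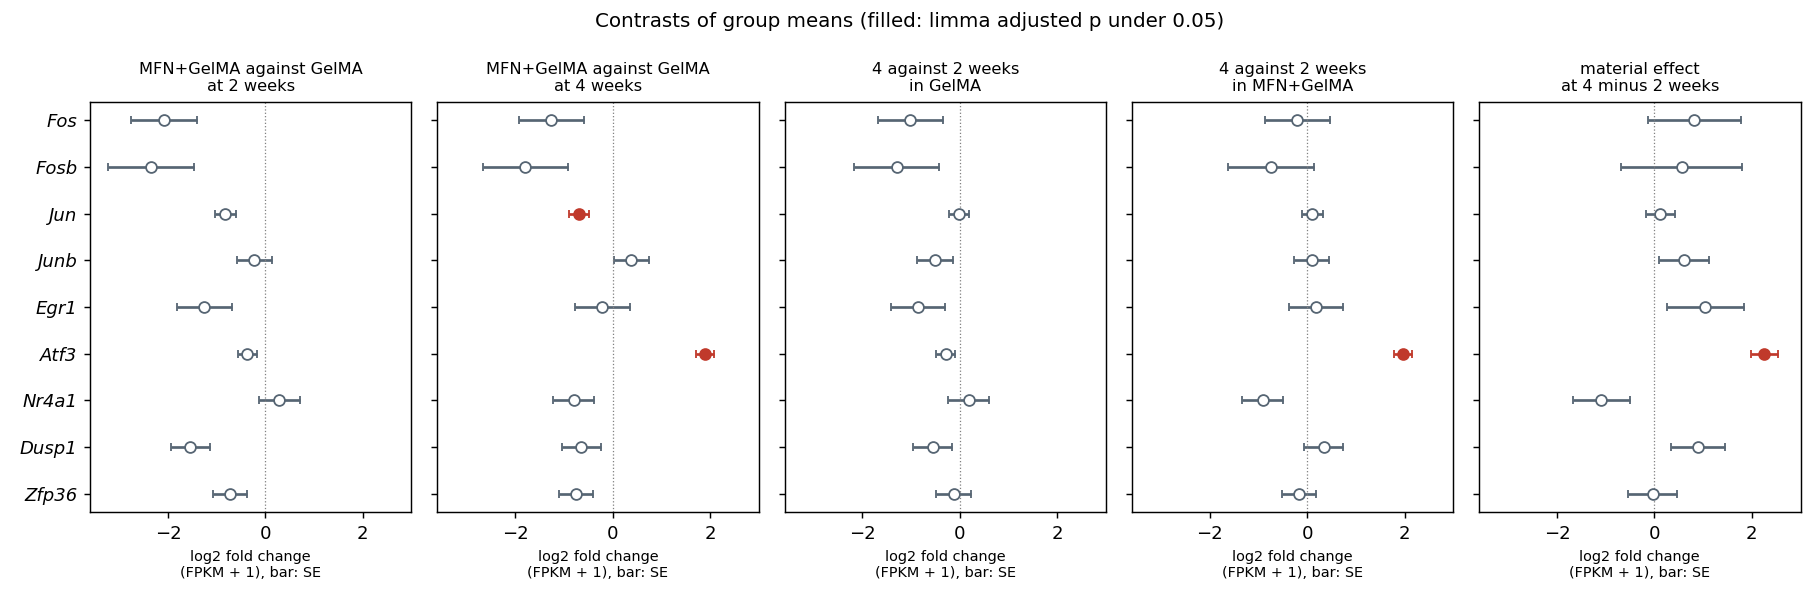
Log2 fold changes with standard errors of the 9 immediate early genes in each comparison, from the limma fit over all genes. At 2 weeks 8 of the 9 estimates are below 0 and none passed, and at 4 weeks Atf3 stands at 1.9.

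GelMA 4W replicate 2 set much of the spread at 4 weeks. Its level over the mean of the other 2 GelMA 4W libraries was 15.7-fold for Fosb, 6.36-fold for Fos, 4.99-fold for Egr1, 3.08-fold for Dusp1, 2.81-fold for Nr4a1, 2.30-fold for Junb, 2.24-fold for Zfp36 and 1.70-fold for Jun. For Atf3 the ratio was 0.741. Leaving this library out changed the time comparison in GelMA: Fosb then fell between 2 and 4 weeks by 2.55 on the log2 scale (limma adjusted p = 0.0424), against a difference of -1.30 (limma adjusted p = 0.467) with all libraries. Without all 3 libraries that stand apart, 4 of the 9 fell in GelMA between 2 and 4 weeks. Fosb fell by 2.74 (limma adjusted p = 0.0106) and Fos fell by 2.06 (limma adjusted p = 0.0267). Egr1 fell by 1.91 (limma adjusted p = 0.00918) and Dusp1 fell by 1.08 (limma adjusted p = 0.0103). Atf3 fell there by 0.57 without GelMA 4W replicate 3 (limma adjusted p = 0.0305).

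The 8 members other than Atf3 went up and down together from library to library. All 8 had GelMA 4W replicate 2 and GelMA 2W replicate 2 as their 2 highest libraries, which was so for 3.11% of all tested genes. Within every group the same library was the highest for all 8: replicate 2 of GelMA 2W (the highest for 33.6% of all genes), replicate 3 of MFN+GelMA 2W (35.9%), replicate 2 of GelMA 4W (43.2%) and replicate 3 of MFN+GelMA 4W (37.6%). Replicate 2 of MFN+GelMA 2W was the lowest for all 8 (32.1% of all genes). Atf3 was highest in other replicates, in replicate 1 of 3 of the groups and in replicate 3 of GelMA 4W.

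Deviations from the group means on the log2 scale were correlated over the 12 libraries for all 28 pairs without Atf3, with Pearson's r between 0.63 (Nr4a1 with Dusp1) and 0.97, and a median of 0.9. Without GelMA 4W replicate 2 the same 28 pairs had r between 0.24 and 0.94, with a median of 0.81. The 8 pairs with Atf3 had r between -0.36 and -0.15, and between -0.14 and 0.16 without that library. These are descriptions of 12 points that share each library's depth and tissue composition.

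**Figure D3:**
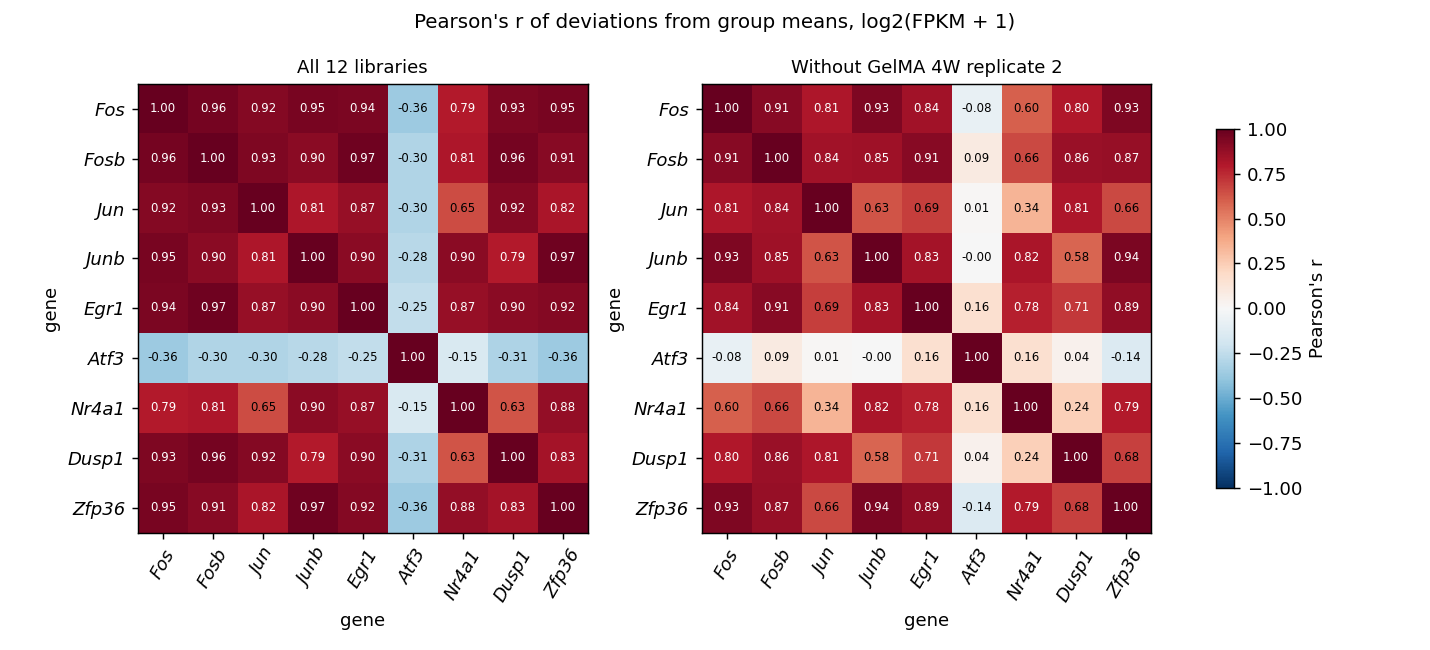
Pearson's r of deviations from group means on the log2(FPKM + 1) scale, for each pair of the 9 immediate early genes over 12 libraries and over 11 without GelMA 4W replicate 2. The 8 genes other than Atf3 form a block of positive values, and the values of Atf3 with them are between -0.36 and 0.16.

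Markers of fat, neutrophils, macrophages, blood, vessels and muscle moved with some of these libraries. The mean log2 level of the 8 members without Atf3 was 6.73 in GelMA 4W replicate 2 and 4.81 and 4.99 in the rest of its group, where the 9 white adipocyte markers averaged 8.10 against 3.45 and 2.93. In GelMA 2W the members averaged 5.86, 6.58 and 5.68 in replicates 1 to 3, and the adipocyte markers 4.26, 4.68 and 2.25. In MFN+GelMA 2W the members averaged 5.05, 4.36 and 5.45, and the adipocyte markers 1.70, 2.51 and 2.18. In MFN+GelMA 4W the members averaged 4.67, 4.6 and 5.10 and the adipocyte markers 1.95, 2.55 and 2.68. The members and the fat markers thus had the same highest library in every group except MFN+GelMA 2W. Neutrophil markers shared the members' highest library in every group except GelMA 2W. They averaged 2.44, 1.72 and 3.01 in MFN+GelMA 2W and 1.54, 1.41 and 0.648 in GelMA 2W, and many of them were low or at 0. Macrophage markers shared it in both MFN+GelMA groups and in neither GelMA group. Red blood cell markers averaged 5.11, 5.73 and 3.64 in GelMA 2W and 5.21, 5.63 and 4.91 in GelMA 4W. In both they were highest in replicate 2, as the members were. They averaged 4.64, 5.12 and 4.83 in MFN+GelMA 2W and 3.62, 4.11 and 3.82 in MFN+GelMA 4W. In these groups they were highest in replicate 2, where the members' mean was lowest. By mean, the 9 endothelial markers were also highest in replicate 2 of each group.

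Summed over the list, white adipocyte markers gave 421.9 to 2578 FPKM in GelMA 2W, 1278 to 1744 in MFN+GelMA 2W, 2191 to 11520 in GelMA 4W and 4805 to 5946 in MFN+GelMA 4W, with Fabp4, which macrophages also express, the most abundant of them. Of the 9 markers, 5 (Plin1, Cidec, Lep, Pck1 and Retn) were at 0 in MFN+GelMA 2W replicate 1, and Pck1 was at 0 in MFN+GelMA 4W replicate 1. The library that was lowest for all 8 members in its group, MFN+GelMA 2W replicate 2, was the one with muscle signal. The part of fat, neutrophils, macrophages, blood, vessels or muscle in the levels of the immediate early genes was not tested. The labels used here do not give how or how fast the tissue was dissected.

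**Figure D4:**
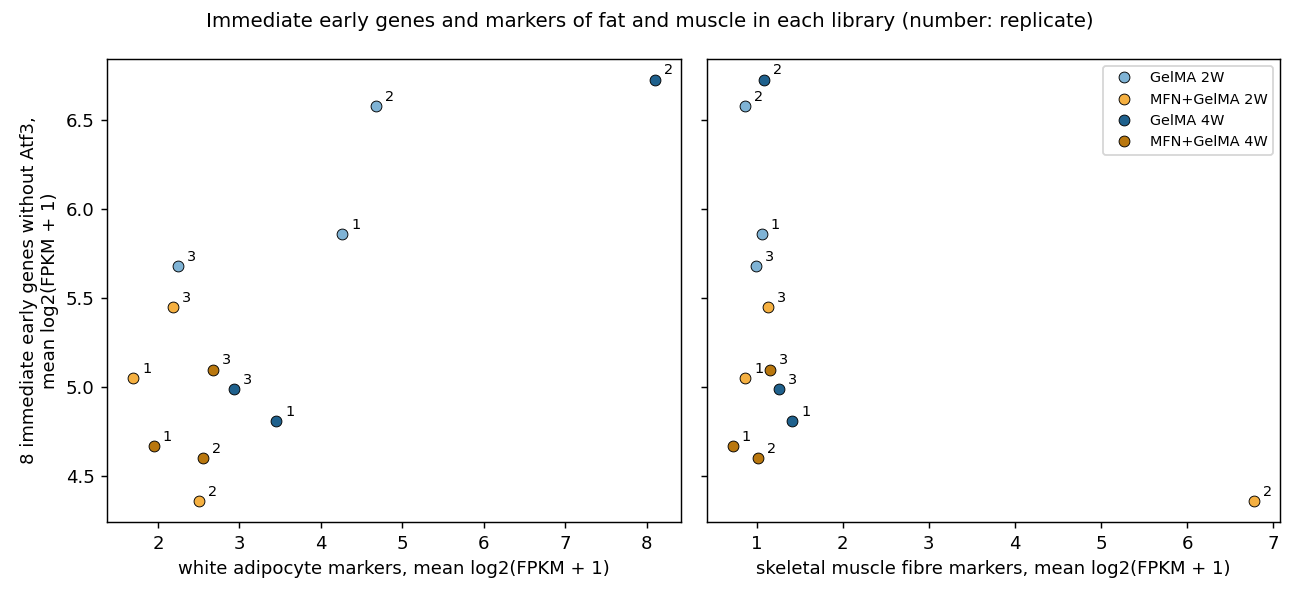
Mean log2(FPKM + 1) of the 8 immediate early genes without Atf3 in each library against the mean of the white adipocyte and of the skeletal muscle fibre markers. GelMA 4W replicate 2 is at 6.73 with a fat mean of 8.10, and MFN+GelMA 2W replicate 2 at 4.36 with a muscle mean of 6.78.

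The other genes of the response were read from lists whose members were chosen with earlier results of these data known. Of 42 tested further primary response genes, 0 passed between materials at 2 weeks (12 at an unadjusted p under 0.05, beside 14.2% of all genes), and 10 rose and 2 fell at 4 weeks, where 15.3% of all genes rose and 9.27% fell, with a median log2 fold change of 0.18. Egr2, a relative of Egr1, rose from 7.10 ± 1.99 to 31.1 ± 0.808 FPKM (SD, n = 3) at 4 weeks, by 2.02 on the log2 scale (limma adjusted p = 5.57e-05). The kinase gene Sgk1 rose by 1.40 (limma adjusted p = 0.000329), and the zinc finger gene Klf4 fell by 1.65 (limma adjusted p = 8.3e-05). Egr2 stood at 30.2, 31.6 and 31.7 FPKM in MFN+GelMA 4W and at 4.90, 7.64 and 8.77 in GelMA 4W. Like Atf3, it was high in all 3 MFN+GelMA 4W libraries and had no high value in GelMA 4W replicate 2.

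Upstream, 0 of the 11 tested ternary complex and CREB regulators passed in any comparison, with between 0 and 2 of them at an unadjusted p under 0.05. The share of all genes at that level was 14.2% and 37.3% between materials at 2 and 4 weeks, 18.2% and 32.8% with time in GelMA and MFN+GelMA, and 29.5% for the difference between weeks. In the MAP kinase cascade 0 of 19 passed at 2 weeks (1 at an unadjusted p under 0.05), and 5 rose and 1 fell at 4 weeks, beside 15.3% and 9.27% of all genes, with a median log2 fold change of 0.25. Map2k1, the kinase that activates ERK, rose from 27.3 ± 2.44 to 52.8 ± 1.15 FPKM (SD, n = 3), by 0.93 (limma adjusted p = 8.3e-05). The kinase gene Rps6ka1 rose by 1.18 (limma adjusted p = 0.00043) and the GTPase gene Nras by 0.72 (limma adjusted p = 0.00108). Of 12 other MAP kinase phosphatases and feedback inhibitors, 0 passed at 2 weeks (4 at an unadjusted p under 0.05), and 2 rose and 2 fell at 4 weeks, beside the same shares of all genes, with a median of -0.073. Spry2, an inhibitor of receptor signalling to ERK, fell by 1.37 (limma adjusted p = 8.3e-05), and its relative Spred1 rose by 0.69 (limma adjusted p = 0.00218).

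Downstream, 10 of 15 tested delayed genes of the AP-1 response rose in MFN+GelMA at 4 weeks and 0 fell, beside 15.3% and 9.27% of all genes, with a median log2 fold change of 0.75. The gelatinase gene Mmp9 rose by 3.77 (limma adjusted p = 0.00102), the hyaluronan receptor gene Cd44 by 1.80 (limma adjusted p = 0.00043) and the intermediate filament gene Vim by 0.75 (limma adjusted p = 0.00182). At 2 weeks 1 of these 15 passed, where 0.497% of all genes did: the protease inhibitor gene Timp1, which rose by 2.08 (limma adjusted p = 0.0424). At an unadjusted p under 0.05 there were 8 of the 15 at 2 weeks, beside 14.2% of all genes. Of the 15 estimates at 2 weeks 13 were above 0, with a median of 0.88. The Timp1 locus overlaps 3 other rows, and its call was lost without any 1 of 9 libraries, with a limma adjusted p of up to 0.153 without GelMA 2W replicate 2. Of 10 tested mRNAs that tristetraprolin is known to destabilise, 0 passed at 2 weeks (1 at an unadjusted p under 0.05), and 2 rose and 0 fell at 4 weeks, beside 15.3% and 9.27% of all genes. The chemokine gene Ccl3 rose by 1.47 (limma adjusted p = 0.0034) and the protease gene Plau by 0.56 (limma adjusted p = 0.0164). The call of Plau was lost without MFN+GelMA 4W replicate 2 (limma adjusted p = 0.0526). With time in MFN+GelMA 2 of these 10 mRNAs rose and 3 fell, beside 11.2% and 8.11% of all genes. Their median log2 fold change was -1.53, and the cytokine gene Il1b fell by 2.59 (limma adjusted p = 0.00913).

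Heat shock genes, which also respond to handling, did not share the layout of Fos. Of 12 tested, 0 passed between materials at 2 weeks (2 at an unadjusted p under 0.05, beside 14.2% of all genes), and 3 rose and 2 fell at 4 weeks, beside 15.3% and 9.27%, shares near the background. Hspa1b, an inducible chaperone gene, stood at 23.7, 16.4 and 18.7 FPKM in GelMA 4W and at 1.94, 4.23 and 4.18 in MFN+GelMA 4W, a fall of 2.25 on the log2 scale (limma adjusted p = 0.000113). In GelMA 4W it was lowest in replicate 2, the library where Fos was highest. Hspa1b has a near-identical copy, Hspa1a, and its locus overlaps 17 other rows, so its level is uncertain. The constitutive chaperone gene Hspa8 rose by 0.50 (limma adjusted p = 0.00166), with reads that could be shared over 2 rows and 3 overlapping genes.

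Among the 8 genes outside the set whose deviations from group means were most like the mean of the 9 members were Trpm2 (r = 0.95), Mif4gd (0.946), Cish (0.943), Srsf5 (0.937), Mybbp1a (0.935), Hibch (0.932) and Nfkbiz (0.931), out of 10183 candidates over 12 libraries. Without GelMA 4W replicate 2, Mybbp1a (0.934) remained among the 8 most alike, and the other genes named here did not. Cish, an inhibitor of cytokine signalling, was at 6.10 FPKM in GelMA 4W replicate 2 and at most 3.43 FPKM elsewhere. The splicing factor gene Srsf5 had a much narrower range, from 117.0 to 170.7 FPKM.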

How the data were processed

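Gene expression was measured by RNA sequencing in 12 rat libraries, 3 in each of 4 groups. Per the labels' protocols, RNA was extracted with TRIzol, depleted of ribosomal RNA with Ribo-Zero and made into TruSeq stranded libraries. The submitters' processing notes name cutadapt 1.9.3, HISAT2, Cuffdiff and genome rn6. Not given in the sources used here are other versions, the annotation and how strand was set.

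The authors deposited 1 table of 22062 rows with 12 columns of FPKM, per the file headers. The other 12 deposited columns, headed as counts, hold a count-like signal: each library has a step of its own, 0.875 to 1.08, and 99.37% to 99.52% of its positive values were whole multiples of that step within a tolerance of 0.05, but 204 positive values in all were nearer to 0 than to 1 step. Whole reads could not be recovered for every value, so no count test was run. The totals of this signal were 11174499 to 13025655.

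Rows with the same symbol were summed (233 symbols on 498 rows). limma 3.58.1 in R 4.3.3 was fitted to log2(FPKM + 1), where 1 is the pseudocount. All 12 libraries entered, each group had its own mean, and the variance followed an intensity trend. There were 8 residual and 3.28 prior degrees of freedom. Tests were two-sided with Benjamini-Hochberg adjustment over 12270 genes at 0.05. Fold changes on this scale understate those of low genes. The fit was tested on simulated data. Loci are those of the deposited table, which does not say whether starts count from 0 or 1.

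The immediate early genes and all lists were chosen with earlier results of these data known. Of the 136 genes listed, 4 were not found. All members are named, and of each list up to 3 genes per comparison with the smallest p, of which those that passed are mainly given. Likeness was Pearson's r of deviations from group means with the members' mean standardised deviation, over genes with a mean of at least 2 FPKM. A gene that this rule selected is not reported here. Alternatives were a pseudocount of 0.1, no filter, a mean of at least 2 FPKM, median-ratio scaling, only the libraries compared, no trend, the replicate number as a block, each library left out, and the 3 libraries that stand apart left out. Scaled counts in place of FPKM were added after seeing the data. Promoter sequences are RefSeq's (GRCr8).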

Additional observations from a re-analysis of the deposited data

Results flagged for a closer look

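The groups hold 3 libraries each, so single libraries were not tested for lying far from their group. The results given here had a material effect at 4 weeks that differed from that at 2 weeks, by limma's test of the difference over all genes. The values are that difference on the log2 scale. Among the immediate early genes it was Atf3, at 2.26 (limma adjusted p = 0.00243). Among other primary response genes the difference was 2.37 for Egr2 (limma adjusted p = 0.00207), 1.88 for Sgk1 (0.00323), 1.15 for Gadd45b (0.00761), 0.69 for Klf6 (0.0161) and -1.03 for Klf4 (0.0153).

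In the MAP kinase cascade and its inhibitors the difference was 0.83 for Map2k1 (limma adjusted p = 0.00468), 0.92 for Rps6ka1 (0.0224), 0.61 for Nras (0.0299), 0.99 for Spred1 (0.00683), 0.51 for Dusp3 (0.0341) and -0.91 for Spry2 (0.0117). Among delayed genes, tristetraprolin targets and heat shock genes it was 1.54 for Cd44 (limma adjusted p = 0.016), 1.01 for Ccnd1 (0.0172), 0.85 for Hmox1 (0.0288), 1.64 for Ccl3 (0.0226), -1.60 for Hspa1b (0.0111) and 0.64 for Hspa8 (0.00871). The calls of Klf4 and Klf6 for this difference were not checked under the alternative settings. Among the other genes, calls of 5 were lost without single libraries. The highest limma adjusted p with 1 library left out was 0.0612 for Rps6ka1 and 0.09 for Dusp3 (both without GelMA 4W replicate 1), 0.0694 for Nras (without MFN+GelMA 4W replicate 1), 0.0705 for Hmox1 (without GelMA 4W replicate 1) and 0.055 for Ccl3 (without MFN+GelMA 4W replicate 3). Without all 3 libraries that stand apart the calls of Cd44 (limma adjusted p = 0.0651), Rps6ka1 (0.068), Nras (0.0711), Hmox1 (0.0909) and Dusp3 (0.119) were lost. That of Dusp3 was also lost with median-ratio scaling (0.0614) and with no intensity trend (0.0534). The Dusp3, Hspa1b and Hspa8 loci overlap other rows of the table.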

How the results depend on the processing

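The rise of Atf3 in MFN+GelMA at 4 weeks, its rise with time in MFN+GelMA and the difference between weeks kept their direction and their call under all 21 alternatives. Counts at the adjusted threshold that moved by over 1.5 times are given here, and the cause was not tested. Counts of immediate early genes at an unadjusted p under 0.05 moved too. At 2 weeks they went from 5 to 3 without replicate 2 of GelMA 2W, or without that of MFN+GelMA 2W. With time in GelMA they went from 0 to 7 without the 3 libraries. For the difference between weeks they went from 1 to 6 without the 3 libraries. The share of all genes at that level was not computed for these fits. At 2 weeks 61 genes passed between materials, and 9 with only the libraries compared, 386 without the 3 libraries that stand apart and 104 with scaled counts. Leaving out 1 library gave 22 genes (without replicate 1 of MFN+GelMA 2W) to 162 genes (without replicate 2 of it). Of the 9 immediate early genes 0 passed there, 2 without the 3 libraries, and 0 to 2 with 1 library left out. At 4 weeks 2 passed, 1 with no filter, 1 with only the libraries compared, and 1 to 2 with 1 library left out. With time in GelMA 274 genes passed, 4 with only the libraries compared and 12 (without GelMA 4W replicate 1) to 290 with 1 library left out. Immediate early genes numbered 0 there, 4 without the 3 libraries, where 409 of all genes passed, and 0 to 1 with 1 left out. With time in MFN+GelMA 2367 genes passed (1506, without MFN+GelMA 4W replicate 1, to 2629). Immediate early genes numbered 1 there, and 2 with only the libraries compared, where 2289 of all genes passed. Without the 3 libraries they numbered 3, where 2540 of all genes passed. For the difference between weeks 1727 genes passed (925, without GelMA 4W replicate 1, to 1612). There 1 immediate early gene passed, 3 without the 3 libraries, where 1455 of all genes passed, and 1 to 3 with 1 left out.

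Members that changed sign passed in none of those fits. Without the 3 libraries these were Nr4a1 at 2 weeks (-0.028) and with time in GelMA (-0.66), Egr1 at 4 weeks (0.55) and with time in MFN+GelMA (-0.11), Jun (-0.0065) and Junb (-0.15) with time in MFN+GelMA, and Zfp36 in the difference between weeks (0.32). With median-ratio scaling Jun turned with time in GelMA (0.022). With 1 library left out, ranges crossed 0 at 2 weeks for Junb (-0.47 to 0.042) and Nr4a1 (-0.12 to 0.69), and at 4 weeks for Egr1 (-0.67 to 0.55). With time in GelMA they crossed 0 for Jun (-0.27 to 0.11), Nr4a1 (-0.25 to 0.58) and Zfp36 (-0.52 to 0.11). With time in MFN+GelMA they did so for Fos (-0.69 to 0.30), Jun (-0.019 to 0.23), Junb (-0.15 to 0.34), Egr1 (-0.11 to 0.44) and Zfp36 (-0.44 to 0.091), and in the difference between weeks for Fosb (-0.15 to 1.81), Jun (-0.0034 to 0.38) and Zfp36 (-0.31 to 0.35).

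Deviations of libraries with the same replicate number correlated at -0.0577 to 0.367 over 18 pairs, with a median of 0.025. Those of libraries with other numbers correlated at -0.342 to 0.133 over 36 pairs, with a median of -0.0174. Of 12 libraries, 6 were most like one with their own number. These values do not decide whether the numbers mark pairs. With the number as a block, 67, 3017, 274, 2300 and 1695 genes passed in the comparisons in the order above, and the calls of the immediate early genes numbered 0, 2, 0, 1 and 1. The edgeR test on whole reads was not run, because whole reads could not be recovered for every value. Genes near 1 FPKM rest on few fragments and are the least precise.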
